A study of Mus musculus with 7 samples.

Results

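Of the 66 putative Reprogramming-Inducible Enhancers (RIEs) of the study, 5 had no called ATAC-seq peak on day 0 and a called peak in each of the 6 later libraries, from day 1 of doxycycline through ESCs. These 5 RIEs belong to *L1td1*, *Cpsf4l*, *Cldn3*, *Ankrd6* and *F2* and make up 7.58% of the putative RIEs (exact 95% interval 2.51 to 16.8%). A shared base between a called peak and the RIE (1 bp or more) was enough for the RIE to count as open. The 5 were chosen by these peak calls, so their time pattern is a property of the choice, and the positions and widths of their peaks are given as a description with no test. The rule did not use the other elements of the same loci or the peaks at functionally related genes. The members and gene lists were, however, chosen with earlier results of these data known.

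ATAC-seq marks open chromatin as sites where Tn5 transposase can cut the DNA of nuclei. The 6 libraries of the time course came from mouse embryonic fibroblasts (MEFs) of a cross between B6;129S4 mice with the Col1a1tm1(tetO-Pou5f1,-Klf4,-Sox2,-Myc) allele (Hoch/J) and B6.Cg mice with the Gt(ROSA)26Sortm1(rtTA*M2) allele (Jae/J). These cells carry the *Pou5f1* (*Oct4*), *Klf4*, *Sox2* and *Myc* transgenes (OKSM) behind a tetracycline operator at *Col1a1*, together with the rtTA transactivator at the ROSA26 locus, and they were taken without doxycycline on day 0 or after 1, 2, 3, 6 or 9 days of doxycycline at 2 µg/ml. The remaining library came from ESCs that received no doxycycline, with Bruce-4 named as the line in the culture protocol although the MEF genotype is entered for that library. There was 1 library per time-point, so no value has a replicate error and no difference between libraries was tested. Day 0 was the only MEF library without doxycycline, and no later time-point had cells left untreated. The paper's protocol also raised the serum share of the medium with doxycycline and changed to ESC medium when early colonies emerged. The transgenes, doxycycline, medium and time in culture therefore cannot be told apart.

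The peak lists held between 27074 peaks in ESCs and 61241 on day 0, with median widths between 364 and 394 bp and a smallest width of 200 bp in each library. Read depth and the number of reads behind a peak are unknown, so a site without a peak was not detected as open, which does not show that it was closed. A bulk library also cannot separate a site open in few cells from a weakly open site in many. Of 12 MEF marker genes, 11 had a peak within 2500 bp of a TSS on day 0 and 3 in ESCs, where 63.0% and 52.7% of all protein-coding genes had one. Of 12 ESC marker genes, 5 had one on day 0 and 6 in ESCs, so these markers did not stand above all genes in the ESC library. *Zfp42*, a marker of naive ESCs, had a peak in ESCs alone, whereas *Sox2*, *Utf1* and *Dppa5a* had peaks in earlier libraries and none in ESCs. *Nanog*, *Sall4* and *Lin28a* had no peak within that distance in any library, ESCs included. The ESC list was also the shortest, so an element given below as without an ESC peak is one that this list does not hold, which applies to RIEs and to other elements alike. The day 2 list had the lowest median width, 364 bp. Of the 66 RIEs, 30 had a peak on day 2, the fewest of the later libraries. Whether a split or missing peak on day 2 belongs to a locus or to this list was not tested.

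During reprogramming, fibroblasts lose their mesenchymal identity, take on epithelial features and in part reach a pluripotent state. Oct4, Sox2 and Klf4 can bind DNA that is wrapped in nucleosomes, and such binding can be followed by opening of enhancers that are closed in fibroblasts. The members have different known roles. L1td1 is an RNA-binding protein of pluripotent and germ cells that derives from a LINE-1 retrotransposon, and *Cpsf4l* is named for its likeness to *Cpsf4*, a zinc finger subunit of the complex that cleaves pre-mRNA for polyadenylation. Cldn3 is a claudin of epithelial tight junctions, Ankrd6 (Diversin) is an ankyrin repeat protein that acts in Wnt signalling and planar cell polarity, and *F2* encodes prothrombin, the liver-made precursor of thrombin.

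The sequences show 4 of the RIE loci in windows of 300 bp, placed by the ESC peak alone. Each window is centred on the longest exon-free stretch of that peak and, where needed, shifted off exons. Bases were read from the RefSeq sequence of GRCm38.p6 (mm10) and printed 5′ to 3′ on the strand of the gene. Capitals mark exact matches to the searched motifs, and no exon of GENCODE or RefSeq lies in a window. The window of *L1td1* is chr4:98727991-98728290 on the plus strand, that of *Cpsf4l* chr11:113710349-113710648 on the minus strand, that of *Cldn3* chr5:134985813-134986112 on the plus strand and that of *F2* chr2:91636871-91637170 on the minus strand.
L1td1: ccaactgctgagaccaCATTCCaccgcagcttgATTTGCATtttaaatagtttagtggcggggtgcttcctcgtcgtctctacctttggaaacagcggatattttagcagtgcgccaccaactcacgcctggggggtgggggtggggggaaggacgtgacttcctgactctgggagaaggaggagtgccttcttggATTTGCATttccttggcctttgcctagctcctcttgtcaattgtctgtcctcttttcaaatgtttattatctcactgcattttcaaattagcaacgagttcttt
Cpsf4l: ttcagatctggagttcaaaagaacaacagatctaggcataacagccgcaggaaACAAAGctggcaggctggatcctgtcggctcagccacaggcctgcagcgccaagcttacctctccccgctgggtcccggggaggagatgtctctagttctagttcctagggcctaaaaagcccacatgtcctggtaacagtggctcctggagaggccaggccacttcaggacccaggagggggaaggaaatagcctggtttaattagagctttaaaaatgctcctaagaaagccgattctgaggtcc
Cldn3: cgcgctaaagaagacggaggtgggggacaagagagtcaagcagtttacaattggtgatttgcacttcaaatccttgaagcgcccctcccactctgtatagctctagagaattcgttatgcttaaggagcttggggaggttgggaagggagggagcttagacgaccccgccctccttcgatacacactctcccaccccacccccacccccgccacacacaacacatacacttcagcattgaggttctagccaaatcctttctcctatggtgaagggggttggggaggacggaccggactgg
F2: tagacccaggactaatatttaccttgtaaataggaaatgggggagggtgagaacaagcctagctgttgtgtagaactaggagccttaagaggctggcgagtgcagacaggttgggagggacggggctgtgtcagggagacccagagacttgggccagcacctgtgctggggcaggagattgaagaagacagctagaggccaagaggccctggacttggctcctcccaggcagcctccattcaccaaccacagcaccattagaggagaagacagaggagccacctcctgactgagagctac

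All 300 bases of the *L1td1* window lay under a peak in each later library. For *Cldn3* this held for 247 bases, for *Cpsf4l* for 211 and for *F2* for 166. As printed, the *F2* window ends inside the RIE and lies mostly upstream of it, so its values describe sequence that is largely outside the RIE. At *Cpsf4l*, *Cldn3* and *Ankrd6* the ESC peak holds exonic bases, and the windows lie upstream of these. The *Ankrd6* window (chr4:32923668-32923967, minus strand, not printed) holds none of the bases shared by all later libraries. It had 160 bases under the ESC peak and 0 under a day 1 peak. The GC content was 48.7% at *L1td1*, 53.7% at *Cpsf4l*, 54.7% at *Cldn3*, 47.7% at *Ankrd6* and 55.7% at *F2*. Over windows of the same length at 104241 merged peak regions the median was 48.3%, with quartiles of 43.3 and 54.3%, so *Cldn3* and *F2* lay above the upper quartile and the other windows between the quartiles. The windows of the merged regions were centred on the region and could hold exons, so they were not placed like those of the members. The same holds for the motif shares of all regions given below.

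Motifs were searched by exact letters on both strands, and no match overlapped another. The octamer ATGCAAAT, the letters bound by Oct4, occurred 2 times in the *L1td1* window, both on the minus strand and so printed as ATTTGCAT, at bases 34 to 41 and 197 to 204 counted from the 5′ end. It occurred in none of the other windows and in 3.19% of the windows of all merged regions. The *L1td1* window also held CATTCC, the core letters of TEAD factors, at bases 17 to 22, as did 21.3% of all regions. The *Cpsf4l* window held ACAAAG, letters bound by SOX and other HMG box factors, at bases 54 to 59, as did 25.0% of all regions. CATTGT (SOX, 16.5% of all regions), CACACCC (KLF, 11.1%), CACGTG (E-box, 4.97%), TGANTCA (AP-1, 22.3%) and AAGGTCA (ESRRB, 5.21%) had no match in the 5 windows. A match is a run of letters and does not show that a factor was bound.

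At *L1td1* the peaks of the later libraries shared the largest part of their element. The gene (ENSMUSG00000087166.9) lies on chromosome 4 from 98726734 to 98738480 on the plus strand, and its RIE, from 98727910 to 98728463 (554 bp), lies in an intron, 1117 bp downstream of the nearest TSS. The peak over it was 728 bp wide on day 1, 529 bp on day 2, 616 bp on day 3, 560 bp on day 6, 583 bp on day 9, and in ESCs 558 bp. The day 1 peak was the widest, 1.38 times the narrowest. The peaks of days 1 and 2 covered 91.0% and 81.2% of the bases of the ESC peak, and those of days 3, 6 and 9 covered 100%, 97.7% and 97.0%. A stretch of 453 bp, from 98727967 to 98728419, lay under a peak in all 6 later libraries and was 58.2% of the 779 bp merged element. None of the 4 annotated starts of *L1td1* lay under a peak in any library.

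*Cpsf4l* was open over its start. The gene (ENSMUSG00000018727.19) lies on chromosome 11 from 113698172 to 113710017 on the minus strand, and the RIE, from 113709819 to 113710934 (1116 bp), holds the TSS of Cpsf4l-201 and 196 exonic bases. Its peak was 602 bp wide on day 1, 596 bp on day 2, 754 bp on day 3, 796 bp on day 6, 686 bp on day 9, with 873 bp in ESCs. Here the ESC peak was the widest, wider than 97.9% of the ESC peaks, and it reached further upstream than the peaks of days 1 to 9, which covered between 68.3% and 77.4% of it. The shared stretch ran from 113710001 to 113710559 (559 bp), and the other 4 annotated starts of the gene lay under no peak.

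*Cldn3* was also open over its TSS. The gene (ENSMUSG00000070473.4) lies on chromosome 5 from 134986214 to 134987472 on the plus strand, and the RIE, from 134985559 to 134986381 (823 bp), holds its only annotated start and 168 exonic bases. The peak was 736 bp wide on day 1, 792 bp on day 3, 802 bp on day 6, 776 bp on day 9, with 694 bp in ESCs, while day 2 had 2 peaks of 248 and 220 bp in its place. Apart from day 2, each of these peaks was wider than at least 91.0% of the peaks of its library. The day 2 gap left 2 shared stretches, of 248 bp upstream of the TSS and of 185 bp over it. Day 1 covered 99.9% of the ESC peak, the 2 peaks of day 2 covered 64.6%, days 3 and 6 covered 100% and day 9 covered 97.8%.

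*Ankrd6* had the RIE whose peaks differed most in extent. The gene (ENSMUSG00000040183.13) lies on chromosome 4 from 32804035 to 32950841 on the minus strand, and the RIE, from 32923375 to 32924606 (1232 bp), holds the start of Ankrd6-201, an internal start of this long gene, and 131 exonic bases. On day 1 it had peaks of 234 and 251 bp and on day 2 peaks of 262 and 452 bp. From day 3 on there was 1 peak, of 1128 bp on day 3, 786 bp on day 6, 1020 bp on day 9, with 451 bp in ESCs. The day 3 and day 9 peaks were wider than 99.4% and 99.0% of the peaks of their libraries, whereas the ESC peak was wider than 58.1%. The ESC peak lay within the peaks of days 3, 6 and 9, at the side of the TSS, and made up 40.0%, 57.4% and 44.2% of their bases. All 6 later libraries shared 168 bp, from 32923377 to 32923544, over the TSS, which is 14.9% of the 1128 bp element.

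*F2* met the rule by the smallest margin. The gene (ENSMUSG00000027249.15) lies on chromosome 2 from 91625320 to 91636414 on the minus strand, and the RIE, from 91636694 to 91636941 (248 bp), is intergenic and ends 280 bp upstream of the TSS. Its peak was 641 bp wide on day 1, 559 bp on day 2, 662 bp on day 3, 533 bp on day 6 and, on day 9, 541 bp, and each of these covered the whole RIE. The ESC peak, from 91636921 to 91637120, had the smallest width in the list, 200 bp, and overlapped the RIE by 21 bp (8.47% of it). The stretch shared by all later libraries, from 91636921 to 91637086 (166 bp), therefore lay mostly upstream of the RIE. None of the 3 annotated starts of *F2* lay under a peak in any library.

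**Figure D1:**
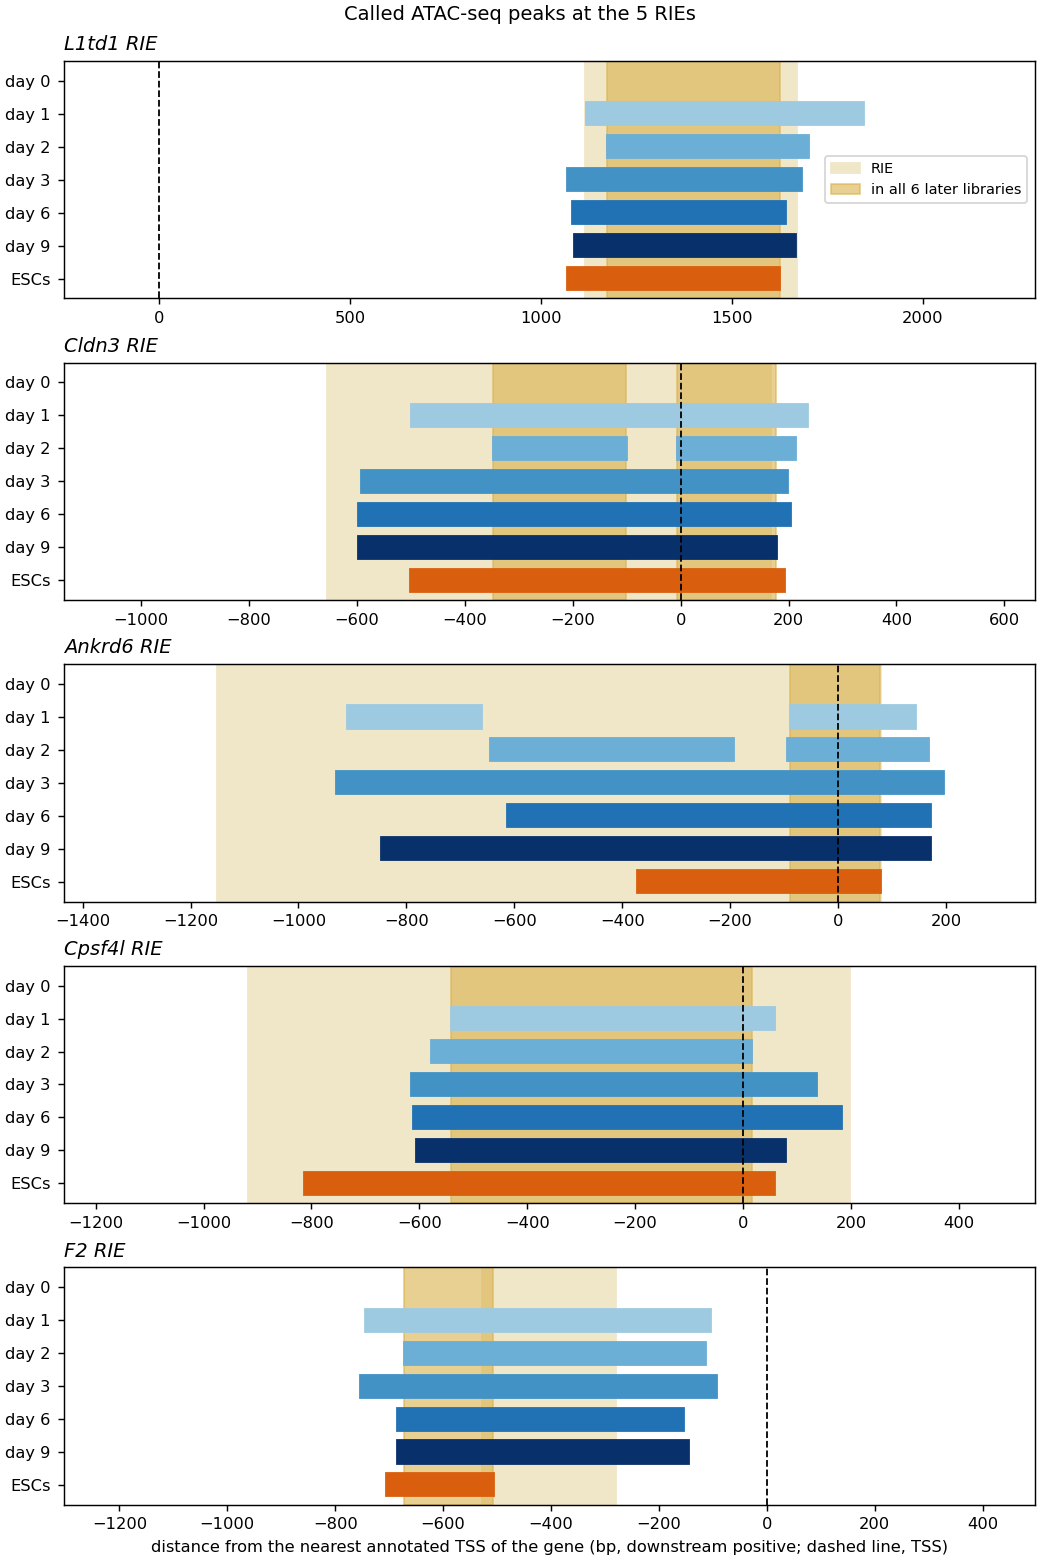
Called peaks at the 5 RIEs in each library, as bars against the distance from the nearest annotated TSS of the gene in bp (downstream positive, dashed line at the TSS); pale shading is the RIE and dark shading the bases under a peak in all 6 later libraries. Day 0 has no bar, the *L1td1* bars line up over 453 bp, and the *F2* bar of ESCs (200 bp) overlaps the RIE by 21 bp at its upstream end.

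Across members, the widest peak at the RIE ranged from 251 to 736 bp on day 1, from 248 to 596 bp on day 2, from 616 to 1128 bp on day 3, from 533 to 802 bp on day 6, from 541 to 1020 bp on day 9 and from 200 to 873 bp in ESCs. Their median was 641, 529, 754, 786, 686 and 558 bp in the same order and was above the median of all peaks in each of these libraries. Of the 30 values, 27 were above the median width of their own library and 12 above its 90th percentile. The exceptions below the median were *Cldn3* on day 2, *Ankrd6* on day 1 and *F2* in ESCs. These are the peaks that the rule used, and the library medians include peaks found in 1 library alone. No trait of the members was therefore read from their widths. The widest peak was 4.49 times the narrowest at *Ankrd6*, 3.31 times at *F2* and 3.23 times at *Cldn3*, against 1.46 times at *Cpsf4l* and 1.38 times at *L1td1*. From day 9 to ESCs the peak was narrower at 4 members and wider at *Cpsf4l*. With 1 library per time-point these orders have no error.

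**Figure D2:**
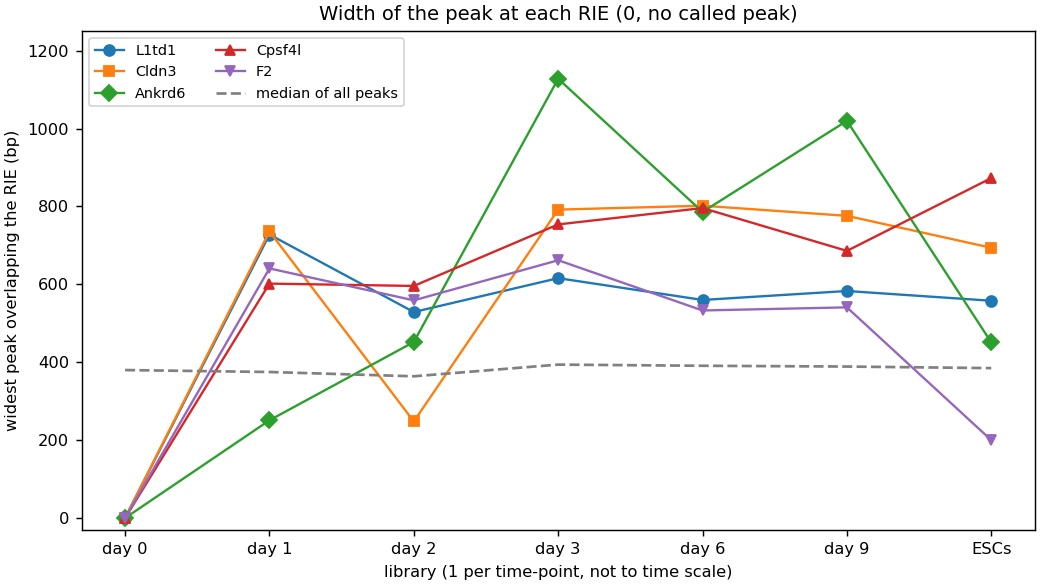
Width in bp of the widest peak overlapping each RIE, by library (points joined for each gene, 0 for no called peak), with the median width of all peaks of the library as a dashed line. *Cldn3* dips to 248 bp on day 2, *Ankrd6* reaches 1128 bp on day 3, and in ESCs *Cpsf4l* is the widest at 873 bp and *F2* the narrowest at 200 bp.

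The members differed in how far inside the rule they lay. The smallest overlap of the RIE with the peaks of a later library was 596 bp at *Cpsf4l*, 497 bp at *L1td1* and 423 bp at *Cldn3*, all on day 2, 421 bp at *Ankrd6* on day 1 and 21 bp at *F2* in ESCs. The nearest day 0 peak lay 3308 bp from the RIE at *Cldn3*, 5691 bp at *Cpsf4l*, 7338 bp at *Ankrd6*, 11524 bp at *L1td1* and 12838 bp at *F2*. Just outside the rule, 7 RIEs had no day 0 peak and lacked a peak in 1 later library. Those of *Lefty1*, *Plekhh1*, *Rpp25* and *Sema4b* had none in ESCs, those of *Gsx1* and *Hcn4* none on day 2, and that of *Cidea* none on day 9. A further 16 RIEs had a peak in all 7 libraries, and the smallest day 0 overlap among them was 167 bp, at *Jade3*, whose whole RIE was covered. By share of the RIE the smallest day 0 cover was 16.5%, at *Phc1*, and at *Kcnt2* it was 33.9%. With peaks at least 300 bp wide, the narrow peaks of *Cldn3* on day 2, *Ankrd6* on day 1 and *F2* in ESCs dropped out. The 3 RIEs that then met the rule were those of *L1td1*, *Cpsf4l* and *Kcnt2*. *L1td1* and *Cpsf4l* met it under each alternative tried.

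The other open elements of the 5 loci were examined next, since the choice of members did not use them. Elements were merged peaks of all 7 libraries within 20 kb of the gene body. There were 27 besides the RIEs, 14 at *Ankrd6*, 5 at *Cpsf4l*, 4 at *Cldn3*, 3 at *L1td1* and 1 at *F2*. None of the 27 had the time pattern of the RIE, while 0.755% of all merged regions (788 of 104346) had it. Of these 788 regions, 768 (97.5%) had no other region of the pattern within 20 kb, so a count of 0 is the usual one. Of the 27, 16 (59.3%) had a day 0 peak, against 56.4% of all merged regions, and 8 (29.6%) had a peak on day 0 alone, against 23.9%. In ESCs 8 (29.6%) had a peak, against 25.0%, and 4 (14.8%) had one in ESCs alone, against 9.76%. Peaks on doxycycline days alone were found at 7 elements (25.9%), against 30.7%, and 6 of the 7 lay at *Ankrd6*. A peak in all 7 libraries was found at 2 elements, against 9.75% of all regions, and a peak in 5 or more libraries at 6 (22.2%), against 23.3%. Of the 16 elements with a day 0 peak, 4 also had an ESC peak, where 21.4% of all regions with a day 0 peak had one. The elements around the RIEs thus lay near the background share in most classes, and with 27 elements, several of them neighbours, no difference was read from these counts.

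**Figure D3:**
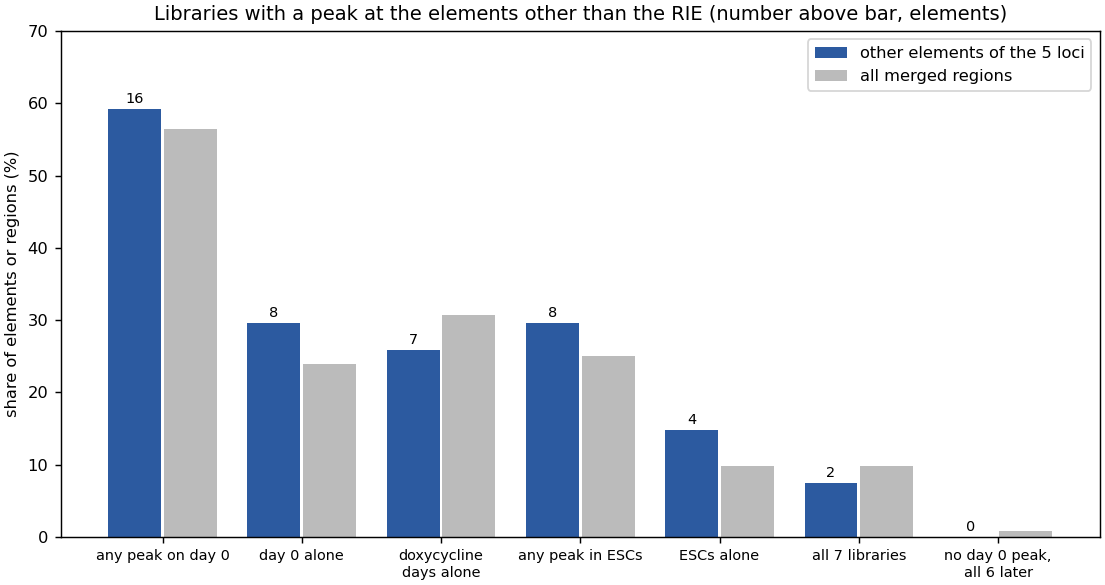
Share in percent of the 27 elements other than the RIEs (blue, number of elements above the bar) and of all 104346 merged regions (grey) with a peak in the libraries named below each pair of bars. None of the 27 elements lacks a day 0 peak and has a peak in every later library, and 16 have a day 0 peak.

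At the *L1td1* locus, the RIE held the widest peak in each of the 6 later libraries and the only peak on day 2. The element 13.1 kb downstream of the TSS, beyond the end of the gene, had peaks of 200 bp on day 0, 226 bp on day 1, 453 bp on day 3, with 368 bp in the day 9 library, a pair of 203 and 200 bp on day 6, and none on day 2 or in ESCs. It thus had a peak in MEFs and none in ESCs, unlike the RIE, while both had peaks on days 1, 3, 6 and 9. The other elements, at 20.4 and 20.8 kb, had peaks of 215 and 318 bp in ESCs alone. Here and at the loci below, being the widest or only peak is partly fixed by the choice of members. The rule required a RIE peak in each later library, while 15 of the 27 other elements had a peak in 1 library alone.

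At *Cldn3*, the RIE held the only peak of the locus on days 1, 2, 3, 6 and 9. The other 4 elements had peaks on day 0 or in ESCs and in no doxycycline library. A day 0 peak of 558 bp, inside the neighbouring gene *Wbscr25*, was the widest of the locus in MEFs. The element at -19.7 kb from the TSS (upstream positions are negative) had a peak of 221 bp on day 0 and of 516 bp in ESCs, and the start of *Wbscr25*, 15.3 kb downstream, had a peak of 593 bp in ESCs alone.

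*Ankrd6* has annotated starts at 2 places that were open, and these differed in their last library. The outer start, used by Ankrd6-202 and Ankrd6-204, lies -27.4 kb from the RIE's start, in an element from 32950546 to 32951193. It had pairs of peaks on day 0 (270 and 235 bp), day 1 (200 and 247 bp) and day 9 (255 and 221 bp), a peak of 483 bp on day 2, of 504 bp on day 3 and of 605 bp on day 6, and none in ESCs. The inner start, at the RIE, had a peak from day 1 through ESCs and none on day 0. An intron element 14.0 kb downstream of the inner start was open on the doxycycline days alone, at 270 bp on day 1, 202 bp on day 2, 519 bp on day 3, 465 bp on day 6, reaching 595 bp on day 9. The element at -24.3 kb had its peaks on days 2, 3, 6 and 9, of 211, 551, 591 and 201 bp. Beyond the 3′ end of the gene, the promoter of *Lyrm2*, a small mitochondrial protein gene, was open in all 7 libraries, at 743 bp on day 0, 395 bp on day 1, 452 bp on day 2, 558 bp on day 3, 526 bp on day 6, 549 bp on day 9, with 346 bp in ESCs. The RIE peak was the widest of the locus in 4 of the 6 later libraries, all but days 1 and 2.

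At *Cpsf4l*, the RIE held the widest peak in 5 of the 6 later libraries. The exception was day 6, when the promoter shared by *D11Wsu47e* and *Fam104a*, 26.2 kb downstream, had a peak of 928 bp against 796 bp at the RIE. That promoter was open in all 7 libraries, with a widest peak of 668 bp on day 0, 365 bp on day 1, 335 bp on day 2, 720 bp on day 3, 661 bp on day 9, with 341 bp in ESCs. An intron element of *Cpsf4l* itself, 6.12 kb downstream of the TSS, had a peak of 463 bp on day 0, of 200 bp on day 1 and of 208 bp on day 6. At *F2*, the only other element was the promoter shared by *Zfp408* and *Arhgap1*, -13.7 kb from the TSS, with peaks of 702 bp on day 0, 522 bp on day 1, 639 bp on day 3, 657 bp on day 6, 585 bp on day 9, with 579 bp in ESCs and none on day 2. The *F2* RIE peak was the wider of the 2 on days 1 and 3 and the only peak of the locus on day 2. Over all the loci, 6 of the 27 other elements had a peak on day 2, the fewest of any library.

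**Figure D4:**
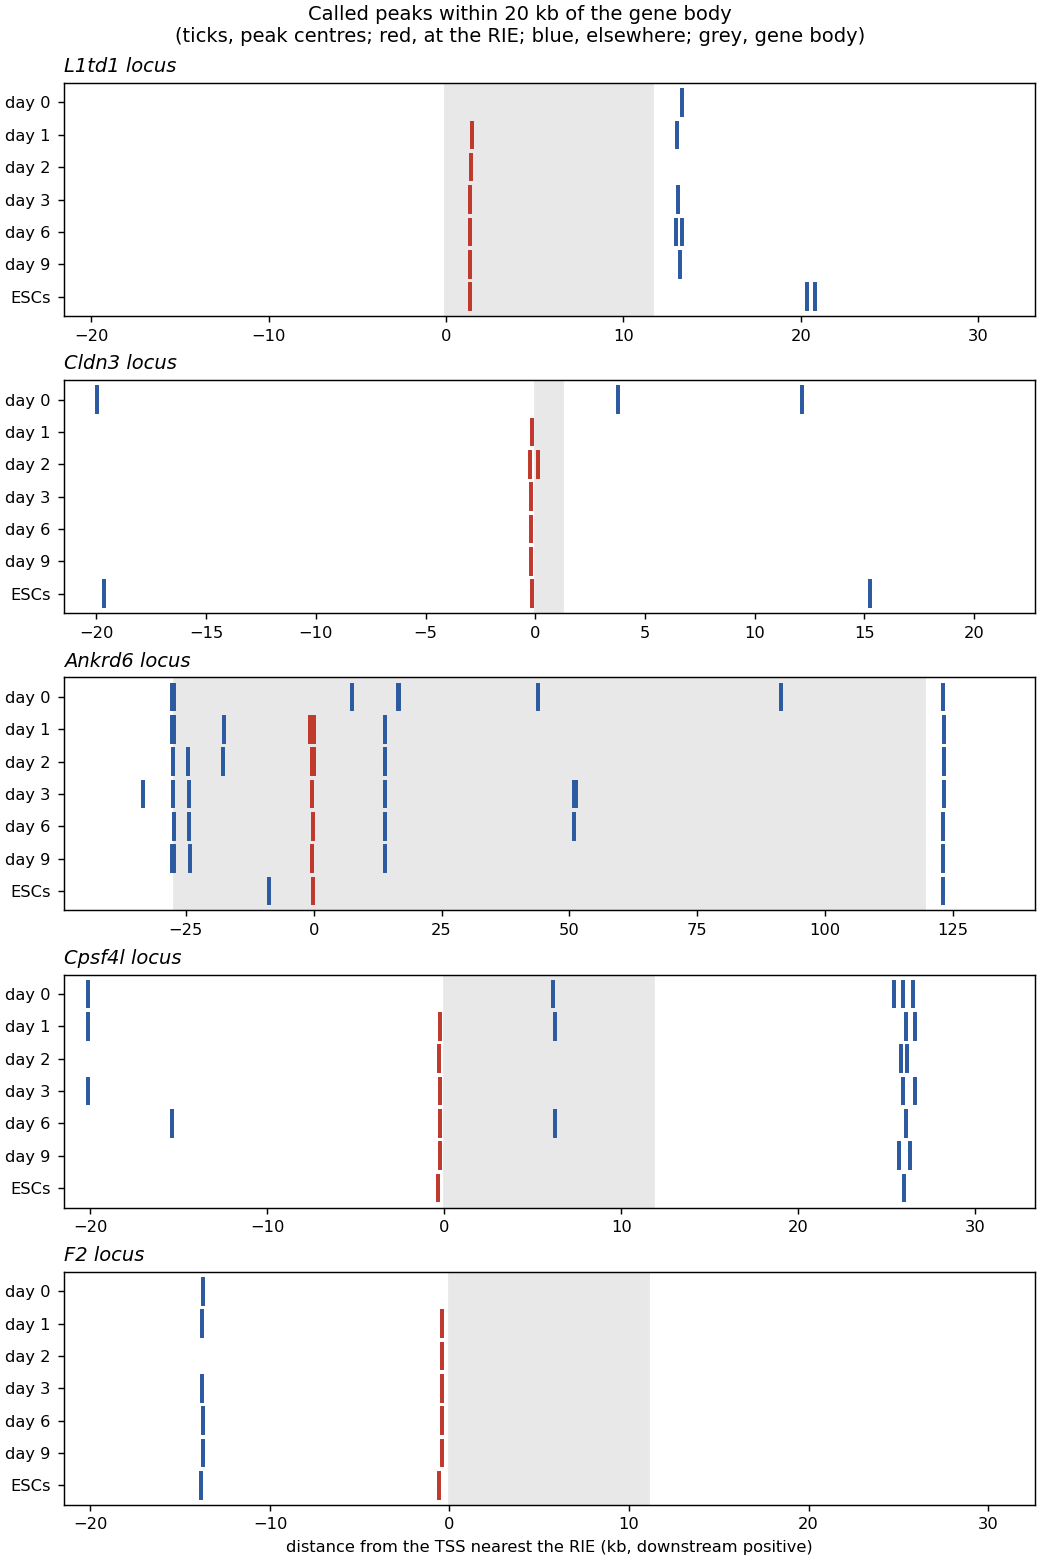
Called peaks within 20 kb of each gene body by library, as ticks at the peak centre against the distance in kb from the TSS nearest the RIE (downstream positive), red at the RIE and blue elsewhere, with the gene body in grey. Each red column runs from day 1 to ESCs, and the *Cldn3* panel has no blue tick from day 1 to day 9.

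Across the genome, the 788 merged regions with the time pattern of the RIEs had a median width of 713 bp, against 424 bp for all merged regions. A merged region spans the peaks of all its libraries, and the pattern requires a peak in every later library. A larger width thus follows in part from the pattern itself. Among the 788, the *Ankrd6* element was wider than 97.3%, *Cpsf4l* than 93.5%, *Cldn3* than 80.5%, *L1td1* than 70.1% and *F2* than 32.6%. All 5 lie within 2500 bp of a TSS, which follows from the gene-proximal definition of the RIEs, while 15.5% of the 788 did, against 22.8% of all merged regions.

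Genes with functions related to those of the members were then examined for a peak within 2500 bp of any TSS, in 5 lists with 82 genes besides the members. None of the 82 had a peak in every library but day 0. No difference was read from this count of 0, since over all 21951 protein-coding genes 43 (0.196%) had this pattern, 4 of them members. Of all protein-coding genes, 44.5% had a peak in all 7 libraries. By this measure *Ankrd6* had a peak in all 7 libraries, since a peak overlay its outer start on day 0.

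Of 17 other claudin and tight junction genes, 6 had a peak in all 7 libraries, among them *Cldn1* and the scaffold gene *Tjp1*, and 4 had none in any library, among them *Cldn4*. *Cldn7* and *Ocln*, the gene of the junction protein occludin, had a peak in ESCs alone, *Cldn9* had one on day 0 alone, *Cldn6* had one on days 0, 1, 2 and 6, and *F11r*, the gene of a junctional adhesion molecule, had one on days 1, 6 and 9 and in ESCs. Of 11 other genes of RNA-binding proteins of pluripotent cells, 4 had a peak in all libraries and 2, *Lin28a* and *Trim71*, in none. *Esrp1*, an epithelial splicing regulator, had a peak from day 2 through ESCs and so differed from *L1td1* in 1 library, and *Lin28b* had one on days 2, 3 and 6 and in ESCs. All 17 other genes of mRNA 3′ end processing, *Cpsf4* included, had a peak in every library, unlike *Cpsf4l* on day 0. Of 19 other genes of Wnt signalling and planar cell polarity, 15 had a peak in every library and *Wnt5a* had none. Of 18 other coagulation genes, 3 had a peak in all libraries, including *F3*, the tissue factor gene, and 9 in none, including the fibrinogen genes *Fga*, *Fgb* and *Fgg*, while *F5* had one in ESCs alone.

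**Figure D5:**
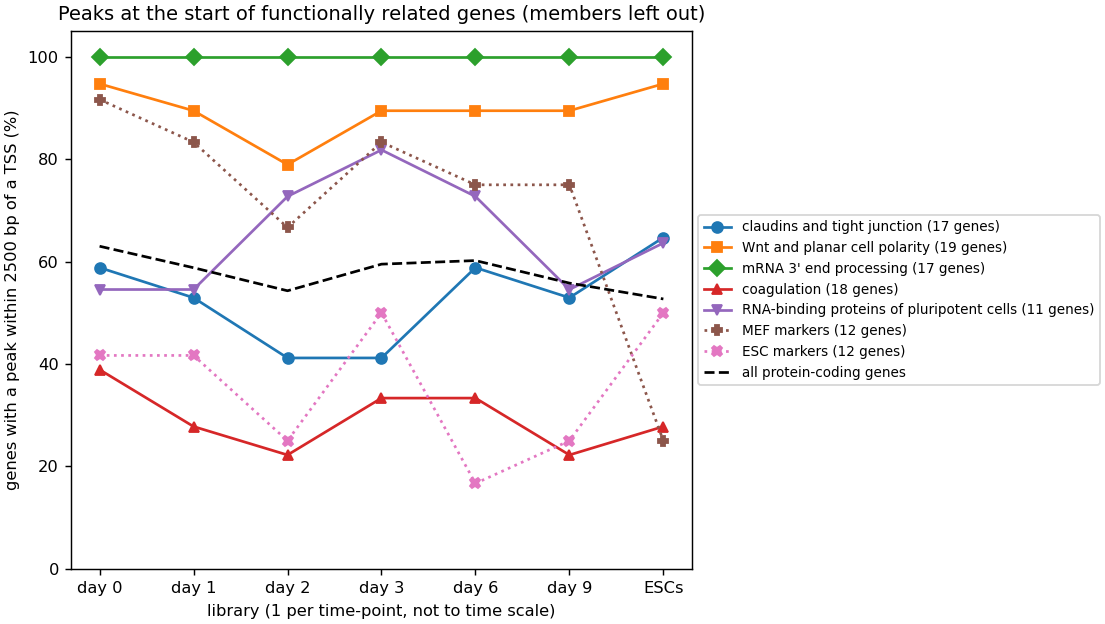
Share in percent of the genes of each list with a called peak within 2500 bp of a TSS, by library, members left out, with MEF and ESC markers as dotted lines and all protein-coding genes as a dashed line. The genes of mRNA 3′ end processing stay at 100% in each library, and the MEF markers go from 11 of 12 on day 0 to 3 of 12 in ESCs.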

How the data were processed

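After trimming (Trimmomatic), the authors aligned the paired-end ATAC-seq reads to mm10 using Bowtie2. Picard served to take out duplicates, all samples were reduced to a common depth, and MACS2 was run on every library separately. The deposited files hold peak coordinates (chromosome, start, end) without a score, and the depth is not given in the sources used here. Replicates were 0, since each time-point had 1 library, and libraries were grouped by the labelled time-point.

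Peaks were compared with the RIE positions listed by the study (coordinates alone were used) and with GENCODE M21, using Python 3.11.15 and numpy 2.4.6, with exact binomial intervals from scipy 1.17.1, which cover counting error only. Overlaps were tested on simulated data, and merging was checked against BEDTools 2.31.1. Positions count from 1. The members and lists were chosen with earlier results of these data known. Named were the 5 members, RIEs 1 library away from the rule, elements with a peak in at least 5 libraries or with the widest peak of a locus in any library, and genes whose TSS an element overlies. The example genes of the lists, the remaining elements and the marker genes were named after their values were seen. Alternatives covered peak width, overlap, flank, merging, the TSS window and the libraries used. ChIP-seq, RNA-seq and reporter data were not analysed here.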

Additional observations from a re-analysis of the deposited data

How the results depend on the processing

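Of 49 values under an alternative, 35 stayed within a factor of 1.5 or the exact interval and 14 moved. A member could stop meeting the rule and still count among the 35. *Ankrd6* did so with a peak in 4 of the 6 later libraries when 50% or more of the RIE had to be covered. Counts of 0 that stayed at 0 are also among the 35. The alternatives that count fewer peaks or another flank change the counts by construction. With peaks at least 300 bp wide, 3 RIEs met the rule, the loci held 13 other elements, 6 of them with a day 0 peak, and 0.633% of merged regions had the pattern. With the 27074 widest peaks of each library, 8 RIEs met the rule (4 members, all but *Ankrd6*, and *Etv1*, *Kcnt2*, *Mapk4* and *Phc1*), and 16 other elements remained, 6 with a day 0 peak. Without the libraries of days 2 and 9, 8 RIEs met it, adding *Cidea*, *Gsx1* and *Hcn4*. Within 10 kb, 10 other elements had a day 0 peak and 1 of these an ESC peak. Within 50 kb there were 50 other elements, 33 with a day 0 peak and 8 of these with an ESC peak. Merging within 300 bp gave 0.841% of regions with the pattern. The number of other elements with the pattern of the RIE was 0 under each flank, merging and peak list tried. When peaks had to cover 50% or more of the RIE, *Ankrd6* and *F2* no longer met the rule and *Kcnt2* did.

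No paired analysis was possible because there was 1 library per time-point. Leaving out a replicate was not run for the same reason. Read depth is unknown, so a missing peak cannot be told from an open site below the threshold.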

Other observations

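The central 300 bp of 785 merged regions with no day 0 peak and a peak in every later library were searched for the same motifs as the RIEs. The octamer ATGCAAAT was present in 86 of them, and in 3326 of 104241 windows of all merged regions (3.19%), and it was present in the *L1td1* window. ACAAAG was present in 44.3% against 25.0%, CATTGT in 27.5% against 16.5% and CACACCC in 19.1% against 11.1%. TGANTCA, the AP-1 letters, was present in 15.7% against 22.3%, CATTCC in 24.2% against 21.3%, AAGGTCA in 6.24% against 5.21% and CACGTG in 3.57% against 4.97%. These are shares of reference sequence in regions selected by their peaks, with no test.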
